A study of Mus musculus with 12 samples.

Results

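Cytosolic ribosomal proteins were taken as every gene of the array annotation whose symbol starts with Rpl or Rps and a digit, with Rpsa and the stalk genes Rplp0, Rplp1 and Rplp2, but without kinases, pseudogenes and Rps19bp1. With 1 probe set per gene, namely the brightest of those listed for a single gene, 49 of the 18193 genes measured met this rule, 26 of the large and 23 of the small ribosomal subunit. A further 31 ribosomal protein genes, among them Rplp1, Rpl5 and Rpl3, are represented only by probe sets listed for several genes and were described together. The values come from monolayers of MC38, a colon carcinoma line of the mouse, exposed for 72 h or 24 h to 100 nM GDC-0623, an inhibitor of the kinase MEK, or to the solvent DMSO. Each of the 4 groups held 3 arrays described as biological replicates, all of 1 cell line without any other cell type. Expression is the log2 signal after robust multichip averaging (RMA), so a change of 1 is a doubling or halving. The p-values rest on the spread between these cultures, which the test (limma) draws toward a common value of all probe sets. In such bulk RNA, fewer cells that express a gene and less RNA per cell cannot be told apart, and RMA sets each array to the same distribution, which removes any change of total RNA.

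Ribosomal proteins assemble with ribosomal RNA in the nucleolus into the large and the small subunit, and dividing cells make them at a very high rate. Most of their mRNAs begin with a run of pyrimidines, the terminal oligopyrimidine (TOP) tract, through which mTORC1 and the RNA-binding protein Larp1 control their translation. MEK activates ERK, and ERK signaling is known to promote ribosome production and to reach ribosomal protein S6 through the RSK kinases. The arrays read mRNA levels only, not translation, ribosomal RNA or protein.

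The start of each mRNA is shown for the 6 genes that fell in a GDC-0623 comparison, and for 2 genes whose brightest probe set passed no test, because the TOP tract lies there. A dim probe set of Rps10, with a mean signal of 5.72, was nevertheless lower at 72 h (−0.52, adjusted p = 0.00253) and at 24 h (−0.37, adjusted p = 0.0312). RefSeq promoter entries (GRCm38.p6) were matched for 43 of the 49 genes. Each window holds 15 bases before the annotated start and the first 15 transcribed bases, 5′ to 3′ on the strand of the gene, and capitals mark its longest run of C and T. The start follows base 15.
Rpl22l1 (chr3:28805493-28805522, plus strand): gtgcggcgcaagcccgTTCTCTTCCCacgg
Rpl12 (chr2:32961697-32961726, plus strand): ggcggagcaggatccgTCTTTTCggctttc
Rpl14 (chr9:120571502-120571531, plus strand): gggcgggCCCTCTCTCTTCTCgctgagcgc
Rpl37 (chr15:5116598-5116627, plus strand): agTTTCCTgggcggaagcttatccacagga
Rps6 (chr4:86857353-86857382, minus strand): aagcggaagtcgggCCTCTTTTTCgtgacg
Rpl7l1 (chr17:46782642-46782671, minus strand): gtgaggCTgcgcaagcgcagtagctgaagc
Rplp2, no call (chr7:141447636-141447665, plus strand): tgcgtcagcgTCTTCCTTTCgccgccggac
Rps10, no call (chr17:27635230-27635259, minus strand): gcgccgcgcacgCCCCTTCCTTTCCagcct

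A run of at least 7 pyrimidines within 10 bases of the annotated start stood in 19 of the 43 windows (44.2%), against 12.2% of the 27025 promoters of all genes. Runs before the start were counted too, such as that of Rpl10a at bases −9 to −3. The share is therefore not the share of mRNAs with a TOP tract. Such a run was present in 4 of the 6 genes that fell, namely Rpl22l1, Rpl12, Rpl14 and Rps6, and in 15 of the 37 others. In the windows above, Rpl7l1 had no run longer than 2 bases and Rpl37 had its longest run of 6 bases upstream of the start. The letters CCGGAA, the core bound by ETS factors, were found on either strand of the 300-base promoter in 26 of 43 genes (60.5%), against 15.2% of all promoters. GGGCGG, the GC box of Sp factors, was found likewise in 24 (55.8%), against 35.9%. Each promoter was counted once per motif, however many matches it held. These are matches of letters, not binding sites, and the groups are too small to set against each other.

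Of 5 transcripts that report ERK activity, among them Egr1 and Dusp6, 5 were lower with GDC-0623 at both times. Of these, Spry4 and Etv4 averaged only 4.81 and 5.86 over the 12 arrays, below 6. All 8 epithelial, 7 leukocyte and 5 endothelial markers read below 6 in every group, the epithelial ones included although the line derives from colon carcinoma. Of 5 fibroblast markers, 4 lay above 6, and the mean of the list was 9.56 to 9.95 in 72 h GDC-0623 arrays against 8.49 to 8.56 in 72 h DMSO arrays, and 8.40 to 8.73 against 7.61 to 7.97 at 24 h. Their part in the results was not tested. Probe sets at the 3′ and 5′ ends of actin differed by 0.09 to 0.16 in all arrays, and those of Gapdh by −0.16 to −0.06.

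After 72 h, 5 ribosomal protein genes were lower in GDC-0623 cultures and none was higher (limma, adjusted p below 0.05), against 12.4% of all genes lower and 13.8% higher. The 5 were Rpl22l1, Rpl12, Rpl14, Rpl37 and Rps6. The count of 5 became 10 in 1 fit over all 12 arrays, 9 with dim probe sets left out of the test, 15 with a trended and robust prior and 3 with a minimum change of 0.5. At an unadjusted p below 0.05, 13 of the 49 were lower and 0 higher, against 19.7% of all genes lower and 18.8% higher. The median change of the 49 genes was −0.11, against −0.03 over all genes, and 45 of the 49 changes were negative. All 3 GDC-0623 arrays lay below all 3 DMSO arrays for 32 of the 49 genes, against 23.7% of all genes, and they lay above them for 0, against 21.3%.

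Rpl22l1, a paralog that can take the place of Rpl22 in the large subunit, showed the largest 72 h change of the 49 genes. Its signal was 10.58, 10.97 and 10.90 in 72 h GDC-0623 cultures, against 11.80, 11.85 and 11.77 in 72 h DMSO cultures. The groups were far apart, and replicate 1 was the lowest of the treated arrays. Rpl22l1 thus fell 1.99-fold (log2 change −0.99 ± 0.11 SE, adjusted p = 0.000335, n = 3 per group), and it stayed below the threshold of 0.05 in all 16 alternatives, between −1.07 and −0.87. At 24 h its signal was 11.15, 11.28 and 11.34 with GDC-0623 and 11.42, 11.58 and 11.40 with DMSO. These arrays did not overlap either, but the change of −0.21 ± 0.08 did not pass the test (adjusted p = 0.118).

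The 72 h effect on Rpl22l1 exceeded the 24 h effect by −0.78 ± 0.14 (95% interval −1.08 to −0.48, adjusted p = 0.00848), tested over all 12 arrays. It was the only 1 of the 49 genes that passed this test, against 1.46% of all genes with a more negative and 1.62% with a more positive effect at 72 h. With culture time, Rpl22l1 was higher at 72 h than at 24 h in DMSO (0.34 ± 0.07, adjusted p = 0.0187) and lower at 72 h than at 24 h in GDC-0623 (−0.44 ± 0.11, adjusted p = 0.0465). The DMSO call was lost without replicate 1 or 2 at 72 h or replicate 1 or 3 at 24 h, with an adjusted p of 0.0535 to 0.0732 in these 4 cases (0.000151 to 0.0732 over 16 alternatives). The GDC-0623 call was lost without each array except 72 h replicate 2, with an adjusted p of 0.0642 to 0.169 (0.00903 to 0.169 over 16 alternatives). The difference of the effects kept its call without each of the 12 arrays.

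**Figure D1:**
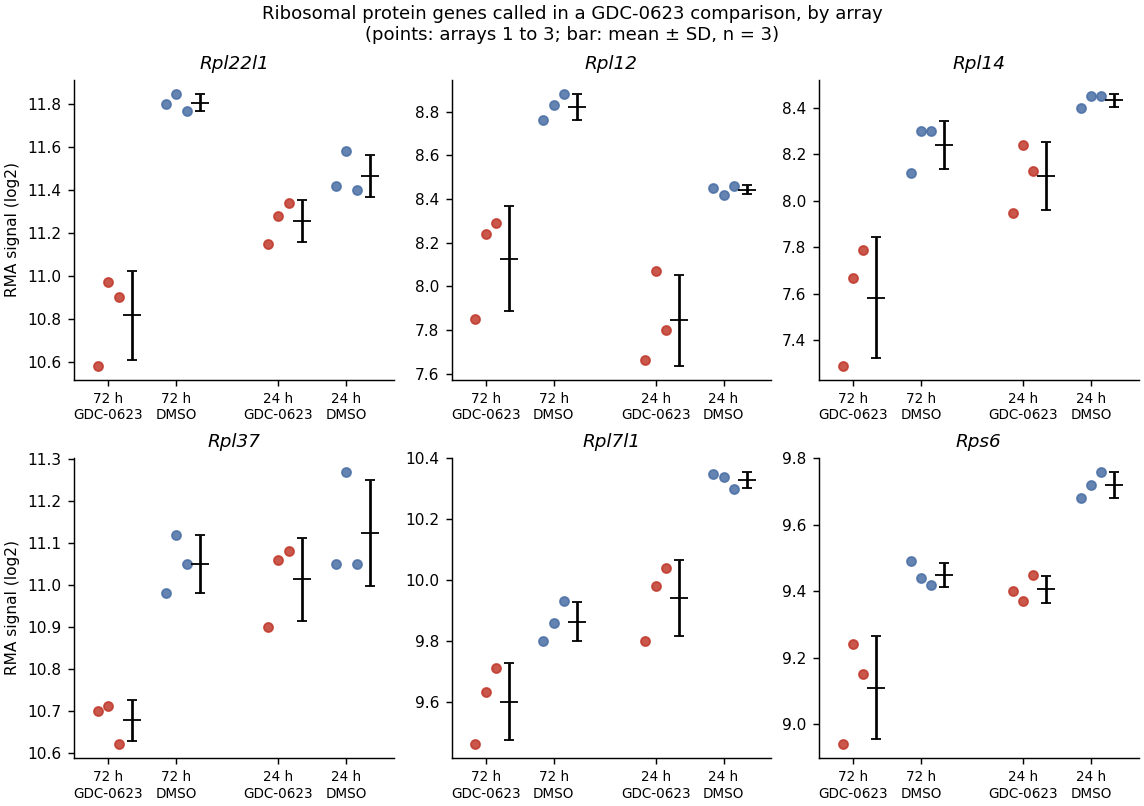
Signal (log2, after RMA) of the 6 ribosomal protein genes that passed the test against DMSO at 72 h or 24 h, 1 panel per gene with its own axis. Points are the 3 arrays of a group and bars are the mean ± SD. Rpl22l1 in 72 h GDC-0623 cultures lies between 10.58 and 10.97, apart from 11.77 to 11.85 in 72 h DMSO cultures, and the 24 h arrays of Rpl37 overlap between treatments.

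Rpl12, a large subunit protein at the base of the stalk, was lower at both times. At 72 h its signal was 7.85, 8.24 and 8.29 with GDC-0623 and 8.76, 8.83 and 8.88 with DMSO. At 24 h it was 7.66, 8.07 and 7.80 with GDC-0623 and 8.45, 8.42 and 8.46 with DMSO. Treated arrays were below all DMSO arrays of their time and more scattered. Rpl12 fell 1.62-fold at 72 h (−0.70 ± 0.12, adjusted p = 0.00329) and 1.52-fold at 24 h (−0.60 ± 0.10, adjusted p = 0.00332), and both calls held in all 16 alternatives. In DMSO it was higher at 72 h than at 24 h (0.38 ± 0.06, adjusted p = 0.00693).

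Rpl14, another protein of the large subunit, read 7.29, 7.67 and 7.79 in 72 h GDC-0623 cultures, against 8.12, 8.30 and 8.30 in 72 h DMSO cultures. The groups did not overlap, and replicate 1 was the lowest array in both. The gene fell 1.58-fold (−0.66 ± 0.13, adjusted p = 0.00656). At 24 h Rpl14 read 7.95, 8.24 and 8.13 with GDC-0623 and 8.40, 8.45 and 8.45 with DMSO, a change of −0.33 ± 0.08 (adjusted p = 0.0264). With arrays left out in turn, the 24 h call held only without GDC-0623 replicate 2. Without any other single array, namely GDC-0623 replicates 1 and 3 and DMSO replicates 1, 2 and 3, it was −0.34 to −0.25 with an adjusted p of 0.0574 to 0.0792 (0.00499 to 0.403 over 16 alternatives).

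Rps6, the substrate of the S6 and RSK kinases in the small subunit, read 8.94, 9.24 and 9.15 in 72 h GDC-0623 cultures, against 9.49, 9.44 and 9.42 in 72 h DMSO cultures. At 24 h it read 9.40, 9.37 and 9.45 with GDC-0623 and 9.68, 9.72 and 9.76 with DMSO. Every treated array was below the DMSO arrays of its time. Rps6 fell 1.27-fold at 72 h (−0.34 ± 0.09, adjusted p = 0.0299) and 1.24-fold at 24 h (−0.31 ± 0.07, adjusted p = 0.0106). With arrays left out in turn, the 72 h call held only without GDC-0623 replicate 2. Without GDC-0623 replicate 1 or 3 or DMSO replicate 1, 2 or 3 it was −0.36 to −0.26 with an adjusted p of 0.0534 to 0.0985 (0.00488 to 0.127 over 16 alternatives). With the mean over all probe sets of the gene, including a dim probe set at 3.21, Rps6 was not called at either time. Its adjusted p was then 0.127 at 72 h and 0.0745 at 24 h.

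Rpl37, a zinc-binding protein of the large subunit, read 10.70, 10.71 and 10.62 in 72 h GDC-0623 cultures, against 10.98, 11.12 and 11.05 in 72 h DMSO cultures. All treated arrays were below the DMSO arrays, and it fell 1.30-fold (−0.37 ± 0.08, adjusted p = 0.00864). Its only probe set listed for a single gene is marked as shared, so the alternative without such probe sets did not include Rpl37. The 72 h call of Rpl37 held in the 15 other alternatives. At 24 h the arrays of both treatments overlapped and the change was −0.11 ± 0.09 (adjusted p = 0.455). Rpl7l1, a relative of Rpl7 known in human cells from precursors of the large subunit, was called at 24 h. Its signal was 9.80, 9.98 and 10.04 in 24 h GDC-0623 cultures, against 10.35, 10.34 and 10.30 in 24 h DMSO cultures, a fall of 1.31-fold (−0.39 ± 0.08, adjusted p = 0.00868). At 72 h it read 9.46, 9.63 and 9.71 with GDC-0623 and 9.80, 9.86 and 9.93 with DMSO. These arrays were still apart, but the change of −0.26 ± 0.09 missed the threshold (adjusted p = 0.0695), and the effects at the 2 times did not differ beyond their error (0.13 ± 0.12, adjusted p = 0.689). Another probe set of Rpl7l1, with a mean signal of 9.79, was lower at both times, with a change of −0.46 at 72 h (adjusted p = 0.00462) and −0.43 at 24 h (adjusted p = 0.00281).

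After 24 h, 4 of the 49 genes were lower in GDC-0623 cultures, namely Rpl12, Rpl7l1, Rpl14 and Rps6, and 0 were higher (limma), against 8.23% of all genes lower and 13.3% higher. With a minimum change of 0.5 the count was 1. At an unadjusted p below 0.05, 6 of the 49 were lower and 0 higher, against 16.2% of all genes lower and 18.8% higher. Treated arrays lay below all DMSO arrays for 12 of the 49 genes, against 20% of all genes, and above them for 0, against 21.2%. The median change was −0.03, equal to that of all genes, and turned to 0.12 when arrays were shifted to equal hybridization controls, a scaling that raised the median over every probe set by 0.151. Under that scaling Rpl12 alone kept its 24 h call, and Rpl14, Rpl7l1 and Rps6 stayed negative at −0.24 to −0.16. The same shift was 0.011 at 72 h, where the median change of the 49 genes became −0.10. These controls averaged 10.12 to 10.32 in 24 h GDC-0623 arrays and 10.27 to 10.43 in 24 h DMSO arrays, which overlap.

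**Figure D2:**
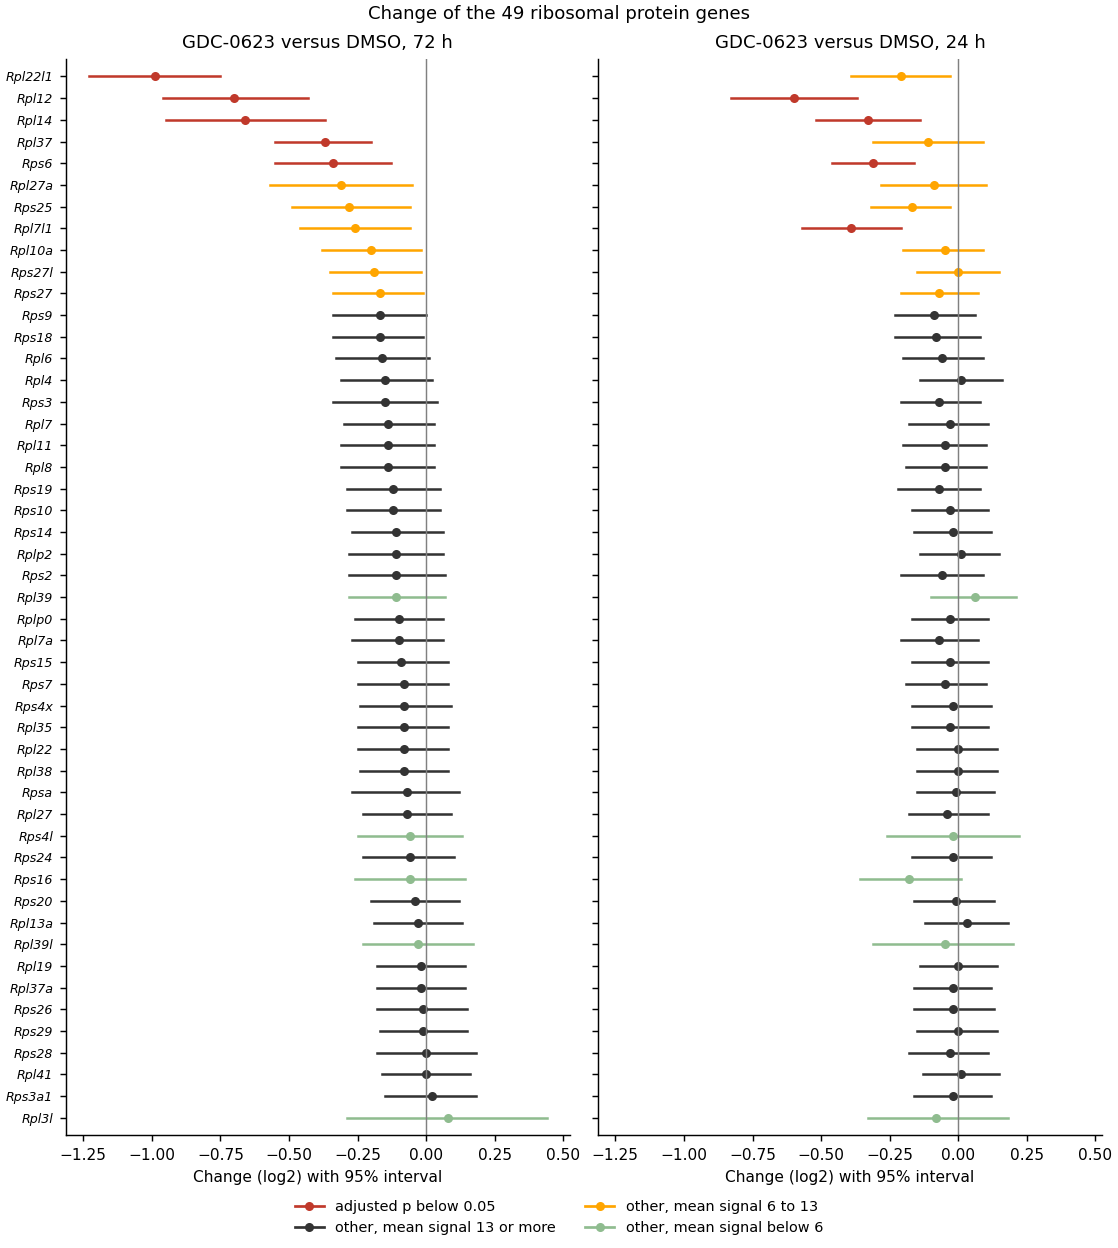
Change with GDC-0623 against DMSO (log2, x axis) of all 49 ribosomal protein genes at 72 h and at 24 h, ordered by the 72 h value, with 95% intervals. Red marks an adjusted p below 0.05 and the other colors give the mean signal of the probe set. Of the 33 genes with a mean signal of 13 or more, 33 have a 24 h interval within ±0.3 and 25 a 72 h interval within ±0.3. The 24 h values shift upward by 0.151 when arrays are set to equal hybridization controls.

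All calls lay among the 11 genes whose probe set had a mean signal of 6 to 13. This signal depends on the probes and is not a transcript level that can be set against that of another gene. In this range 5 of 11 were lower and 0 higher at 72 h, against 21.7% and 22% of all genes of the same range, and 4 of 11 were lower and 0 higher at 24 h, against 13.9% and 22.6%. The 11 had a median change of −0.31 at 72 h and −0.17 at 24 h, and at 72 h the treated arrays lay below all DMSO arrays for all 11, against 35.5% of all genes of the same range. Their mean was 9.61, 9.80 and 9.79 in 72 h GDC-0623 arrays against 10.10, 10.18 and 10.14 in 72 h DMSO arrays. At 24 h it was 9.88, 9.97 and 9.98 against 10.13, 10.19 and 10.15. GDC-0623 arrays were thus below the DMSO arrays at both times, with replicate 1 the lowest of the treated arrays. Of the 11, Rpl22l1 alone passed the test of the difference between the times.

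None of the 33 genes with a mean signal of at least 13 was called in any comparison (limma), and at an unadjusted p below 0.05 it was 2 at 72 h, both lower, against 4.55% of the 66 genes of any kind in this range, and 0 at 24 h. The alternative with a trended and robust prior called some of them at 72 h, among them Rpl11, Rpl4 and Rps18. Their changes spanned −0.17 to 0.02 at 72 h (median −0.08) and −0.09 to 0.03 at 24 h (median −0.03). All 3 GDC-0623 arrays were below all DMSO arrays in 21 of the 33 at 72 h, against 47% of the 66 genes, which include the 33, and 10 of the 33 other genes. Of the 66, 1.52% were lower and 7.58% higher at 72 h, against 0% lower and 7.58% higher at 24 h. The highest value of each array was 14.21 to 14.38, so that these probe sets lay near the top of the scale, with 0.440% of all probe sets at 13 or more.

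Genes with more than 1 probe set allowed the same gene to be read at different signals. For 12 genes whose brightest probe set had a mean signal of at least 13 and which had another between 6 and 13, the dimmest in that range changed more negatively in 12 of 12 at 72 h (median −0.21, against −0.08 for the brightest) and in 9 of 12 at 24 h (−0.11 against −0.03). Genes without such a pair were not counted, and Rpl7l1 ran the other way at 72 h, with −0.11 at 7.44 and −0.26 at 9.93. Rps9, which with Rps3 lines the mRNA entry of the small subunit, gave −0.17, −0.38 and −0.85 at 72 h at mean signals of 13.25, 11.66 and 6.62. Of these the probe set at 11.66 was called (adjusted p = 0.0266) and the one at 6.62 had the widest error (SE 0.342). Rps3 gave −0.15 at 13.34 and −0.49 at 8.68 (adjusted p = 0.0218). Rpl37a gave −0.02 at 14.07 and −0.47 at 9.00 (adjusted p = 0.0284), and Rpl13a gave −0.03 at 13.44 and −0.35 at 10.55 (adjusted p = 0.0297). At 24 h the probe set of Rps9 at 6.62 gave −0.65 (adjusted p = 0.00107) and that of Rpl37a at 9.00 gave −0.45 (adjusted p = 0.00393). Those of Rps9 at 11.66 and Rpl13a at 10.55 gave −0.10 and −0.09 at 24 h, without a call. Of the 56 other probe sets of the 49 genes, 7 were lower at 72 h and 7 at 24 h, against 10.2% and 7.43% of all probe sets, and 0 were higher, against 10.1% and 9.29%. At 72 h they lay in 7 genes whose brightest probe set had no call, and at 24 h 5 such genes had a called other probe set. No called gene had a probe set called in the opposite direction. Rps9, Rpl37a and Rpl13a were named after their values were seen, and the cause of the difference between bright and dim probe sets was not tested.

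**Figure D3:**
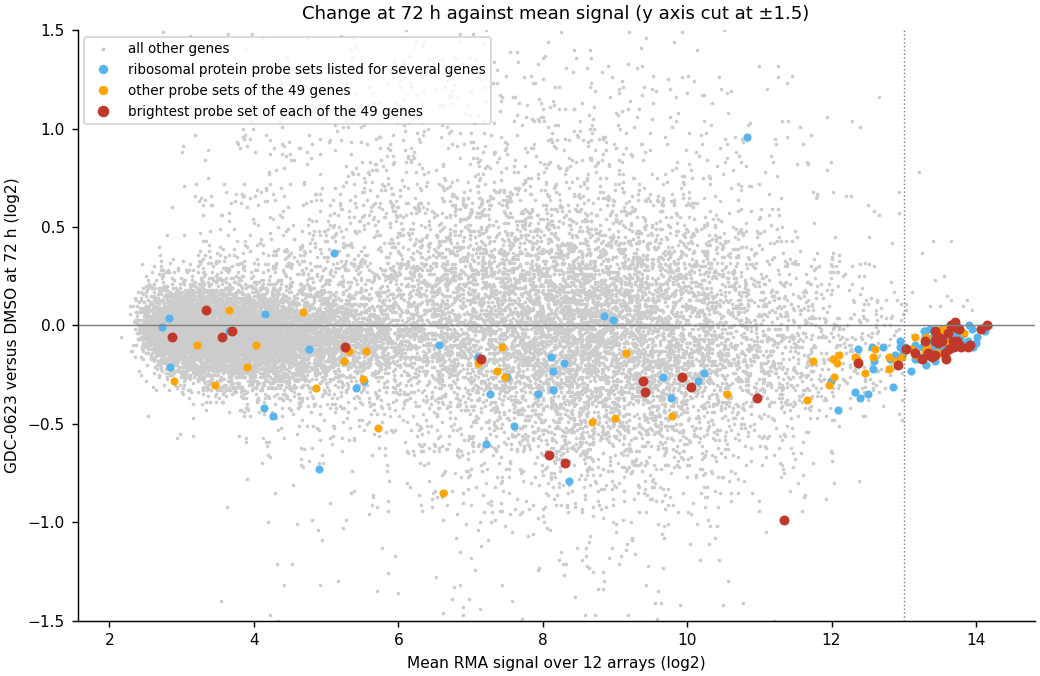
Change with GDC-0623 at 72 h (log2, y axis) against mean signal over the 12 arrays (log2, x axis). Red points are the brightest probe set of each of the 49 genes, orange their other probe sets, blue the 110 ribosomal protein probe sets listed for several genes and grey all other genes, of which 312 lie beyond ±1.5. Right of the dotted line at 13 the red points stay between −0.17 and 0.02, and between 6 and 13 all of them are below 0.

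Among the 110 probe sets listed for a ribosomal protein gene together with other genes, 63 had a mean signal of at least 13. At 72 h 14 of the 110 were lower and 2 higher, against 10.2% and 10.1% of all probe sets. At 24 h 3 were lower and 1 higher, against 7.43% and 9.29%. Of the 14, 12 lay between 6 and 13 and 0 at 13 or more. The median change of the 110 was −0.11 at 72 h and −0.04 at 24 h. The 63 at 13 or more changed by −0.23 to 0.00 at 72 h and by −0.12 to 0.04 at 24 h. Which of these read Rpl12, Rpl14, Rps6 or Rpl37 was not examined, and the calls of those genes rest on dimmer probe sets. The 2 higher ones are listed for Rpl13 with Tax1bp3 (0.96, adjusted p = 0.000447) and for Rpl13a with Flt3l (0.37, adjusted p = 0.0149), and which of the paired genes they read cannot be told apart.

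Minor paralogs were set beside their partners. Rpl22, the partner of Rpl22l1, gave −0.08 at 72 h (95% interval −0.25 to 0.08) and 0.00 at 24 h, and its dimmer probe sets gave −0.24 and −0.14 at 72 h without a call. Rpl7, the partner of Rpl7l1, gave −0.14 (−0.30 to 0.03) at 72 h and −0.03 at 24 h, whereas the dimmest probe set of Rpl7l1 gave −0.11 (adjusted p = 0.556) at 72 h and −0.47 (adjusted p = 0.00307) at 24 h. Rps27l, a p53-regulated paralog of Rps27, gave −0.19 (−0.35 to −0.02, adjusted p = 0.109) at 72 h and 0.00 at 24 h, and Rps27 gave −0.17 and −0.07. Rpl39l, known from testis, Rpl3l, known from striated muscle, and Rps4l had means of 3.70, 3.33 and 3.56, in the background range, and changes between −0.08 and 0.08. Rps4x, the partner of Rps4l, gave −0.08 and −0.02. Rpl39 and Rps16 also averaged only 5.26 and 2.87 although every cell uses them, so their values were not read as levels of the transcript.

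Genes fixed by role other than Rps6, which was called at both times, gave small values at their brightest probe set. The stalk proteins Rplp0 and Rplp2 changed by −0.10 and −0.11 at 72 h and by −0.03 and 0.01 at 24 h. Rpl11, which as part of the 5S particle can bind Mdm2, gave −0.14 (95% interval −0.31 to 0.03) and −0.05. Rpsa, also known as the laminin receptor precursor, gave −0.07 and −0.01, and Rps19, mutated in human Diamond-Blackfan anemia, gave −0.12 and −0.07. Rps3 gave −0.15 (95% interval −0.34 to 0.04) and −0.07. A dimmer probe set of Rps3 was called at 72 h (−0.49, adjusted p = 0.0218) and at 24 h (−0.32, adjusted p = 0.027). At the brightest probe set none of these genes passed the test, and their 72 h intervals reached no lower than −0.34.

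For the ribosomal protein genes, culture time was compared within each treatment. In DMSO, 72 h against 24 h, Rpl12 and Rpl22l1 were higher, against 8.41% of all genes, and Rpl7l1 (−0.47 ± 0.06, adjusted p = 0.00322) and Rps6 (−0.27 ± 0.06, adjusted p = 0.0245) were lower, against 5.14%. With the replicate number as a block Rps6 was no longer called (adjusted p = 0.0544), nor without any single array except 72 h replicate 1 (0.0547 to 0.0909, with 0.000957 to 0.385 over 16 alternatives). In GDC-0623, Rpl14 (−0.52 ± 0.13, adjusted p = 0.0467), Rpl22l1 and Rpl37 (−0.34 ± 0.08, adjusted p = 0.0408) were lower at 72 h than at 24 h, against 3.11% of all genes, and 0 were higher (limma), against 5.79%, also 0 at an unadjusted p below 0.05, against 11.8%. The count of 3 became 6 in 1 fit over all 12 arrays, 6 with the shift by hybridization controls, 5 with dim probe sets left out, 5 with the trended prior and 1 with a minimum change of 0.5. With the block Rpl7l1 was called too (−0.34, adjusted p = 0.0318, with 0.015 to 0.224 over 16 alternatives). Leaving out any single array left 0 to 1 of these 3 calls, while the changes stayed between −0.63 and −0.38 for Rpl14, −0.52 and −0.32 for Rpl22l1 and −0.39 and −0.30 for Rpl37. Rpl14 was lost without each array except 72 h replicate 3 (adjusted p of 0.0589 to 0.176, with 0.00772 to 0.176 over 16 alternatives). Rpl37 was lost without each except 24 h replicate 1 (0.0693 to 0.152, with 0.012 to 0.152 over 15 alternatives).

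Related genes were counted from fixed lists. At 72 h 12.4% of all genes were lower and 13.8% higher, and at 24 h 8.23% were lower and 13.3% higher. Among all genes with a mean signal of 6 to 13, 21.7% were lower and 22% higher at 72 h, and 13.9% and 22.6% at 24 h. Of 27 ribosome biogenesis factors, 25 were lower at 72 h (median −0.58) and 23 at 24 h (median −0.47), and none was higher. Of 11 chaperones and importins that guard new ribosomal proteins or carry them into the nucleus, 7 were lower at 72 h (median −0.38) and 6 at 24 h (median −0.28), with 0 higher. The importin Ipo7 gave 11.19, 11.44 and 11.52 in 72 h GDC-0623 cultures, against 12.06, 12.09 and 12.10 in 72 h DMSO cultures (−0.70 ± 0.10, adjusted p = 0.00118). Grwd1, known in yeast as the chaperone of Rpl3, gave −0.64 ± 0.15 (adjusted p = 0.0168), and Tsr2, known in yeast as the carrier of Rps26, gave −0.54 ± 0.15 (adjusted p = 0.0336). Of 76 mitochondrial ribosomal proteins, which belong to a different ribosome, 38 were lower at 72 h (median −0.27) and 25 at 24 h (median −0.17), with 0 higher.

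Translation factors and other genes whose mRNA carries a TOP tract were counted in the same way. Of 21 measured, 3 were lower at 72 h (Eif3k −0.40, Npm1 −0.33, Nap1l1 −0.30) and 0 at 24 h, against 12.4% and 8.23% of all genes. Among all genes with a mean signal of 6 to 13 these shares were 21.7% and 13.9%. The medians of the 21 were −0.16 and −0.10, and 0 were higher at either time, against 13.8% and 13.3% of all genes. Among 13 genes of the S6 kinase and mTORC1 pathway, 3 were higher and 3 lower at each time. The shares of all genes were 13.8% higher and 12.4% lower at 72 h, and 13.3% and 8.23% at 24 h. At 72 h the S6 kinase gene Rps6kb2 (0.51 ± 0.11, adjusted p = 0.0112) and the mTORC1 inhibitors Tsc2 (0.46) and Tsc1 (0.42) were higher, and the translation repressor Eif4ebp1 was lower (−0.77 ± 0.11, adjusted p = 0.00133). For Eif4ebp1 the 72 h effect exceeded the 24 h effect by −0.54 ± 0.13 (adjusted p = 0.0476). From 24 h to 72 h Eif4ebp1 changed by 0.55 ± 0.06 in DMSO (adjusted p = 0.00181) and by 0.01 ± 0.11 in GDC-0623 (adjusted p = 0.981).

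**Figure D4:**
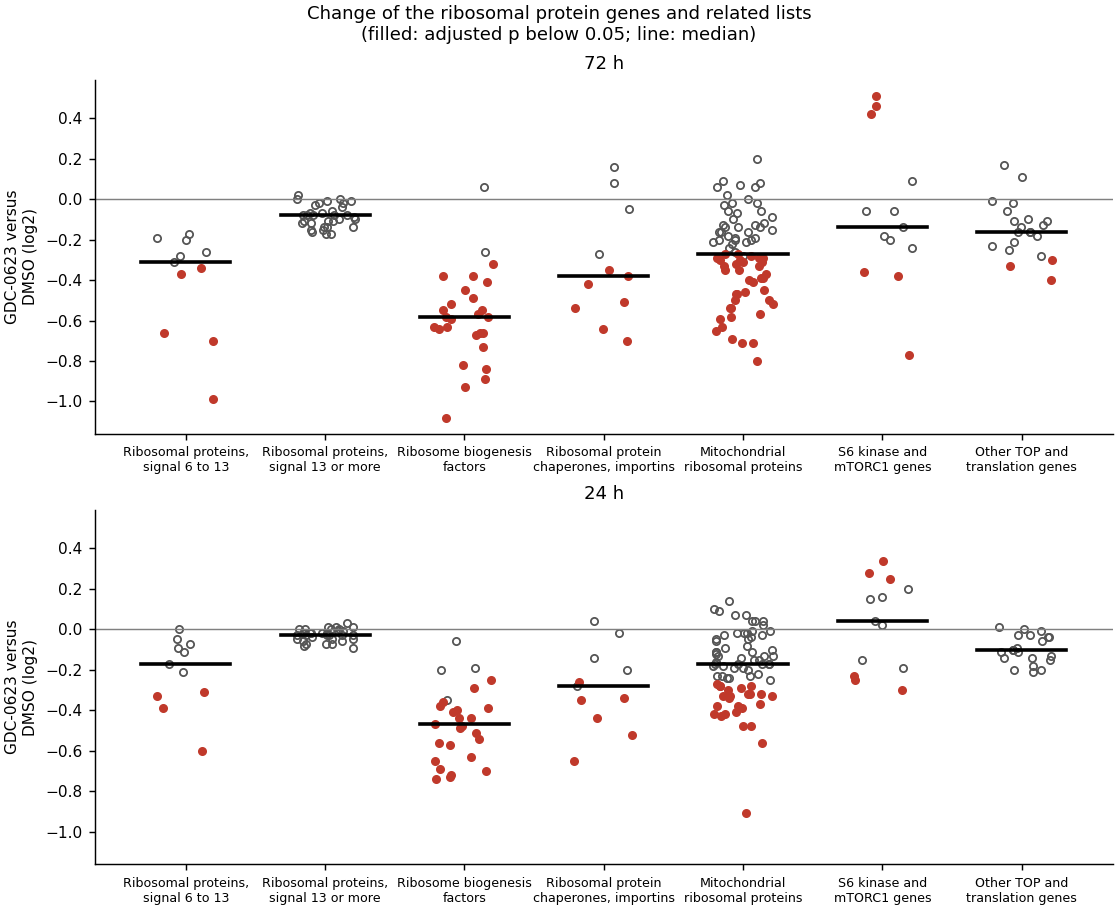
Change with GDC-0623 against DMSO (log2, y axis) at 72 h and 24 h for the ribosomal protein genes, split by mean signal, and for related gene lists. Each point is a gene, filled where the adjusted p was below 0.05, and lines are medians. At 72 h the medians are −0.31 for ribosomal protein genes of signal 6 to 13, −0.08 for those of 13 or more and −0.58 for biogenesis factors. All 24 h values shift upward by 0.151 when arrays are set to equal hybridization controls.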

How the data were processed

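RNA from MC38 cells (4 groups of 3 arrays) was amplified from the 3′ end and hybridised to Affymetrix mouse GeneChip arrays. The deposited table holds log2 values that the authors obtained by RMA (background correction, quantile normalization, probe set summary), rounded to 2 decimals. For RMA, the version is not given in the sources used here, nor is it stated if further arrays were normalized together with the 12. The number of arrays limits the precision. Probe sets were named from the platform annotation. Of 45037 tested probe sets (64 controls left out), 34945 had 1 symbol, 932 had several and 9160 had none. All 49 symbols matched the reference table.

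Groups were compared by limma 3.58.1 (R 4.3.3), as pairs of groups on 6 arrays and for the difference of effects on all 12, with Benjamini-Hochberg adjustment over all probe sets and a threshold of 0.05. The method was tested on simulated arrays with known changes and independent noise, which lacked the shared deviation of same-numbered arrays given below. Errors of changes are standard errors from this fit, drawn toward a common value of all probe sets. Named were called genes, genes fixed by role, minor paralogs with their partners and up to 4 called genes per list. The gene set, lists and tests were chosen with earlier results of these data known. Titles give replicate numbers. Same-numbered arrays deviated together in every pair (r = 0.125 to 0.555 over 16451 probe sets), so the number was used as a block in an alternative. Other alternatives were 1 fit over 12 arrays, a filter on dim probe sets (at least 5 on 3 arrays), repeated quantile normalization, a shift by hybridization controls, median centring, a trended and robust prior, array weights, the mean of a gene's probe sets, probe sets not marked as shared, a minimum change of 0.5 and leaving out every array once.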

Additional observations from a re-analysis of the deposited data

Results flagged for a closer look

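Rpl22l1 was singled out because its response to GDC-0623 differed between times, with a change at 72 h minus that at 24 h of −0.78 on the log2 scale (limma, adjusted p = 0.00848). Its signal averaged 10.82 ± 0.21 with GDC-0623 and 11.81 ± 0.04 with DMSO at 72 h, and 11.26 ± 0.10 with GDC-0623 and 11.47 ± 0.10 with DMSO at 24 h (SD, n = 3). The difference ranged from −0.92 to −0.66 over 21 alternatives and passed the test in all 21. The cause was not tested.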

How the results depend on the processing

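No call among the 21 named genes reversed. Of 1765 alternative values of these genes, 1598 kept their side of the threshold without a larger shift, 98 without a call moved by more than the spread between arrays, 22 gained a call and 47 lost one. At 24 h the count of lower genes, 4, became 1 with the shift by hybridization controls and 1 with a minimum change of 0.5, and the median change became 0.12 with that shift, 0.00 with median centring and −0.06 with the mean of a gene's probe sets. At 72 h the count, 5, became 10 in 1 fit over 12 arrays, 9 with the filter on dim probe sets, 15 with a trended and robust prior and 3 with a minimum change of 0.5. The median became −0.14 with the mean of probe sets and ranged from −0.12 to −0.08 over the omission of each array, with −0.08 without 72 h GDC-0623 replicate 1. For the difference of effects the median, −0.06, became −0.20 with the shift and −0.09 with centring, and ranged from −0.09 to −0.04 with arrays left out. In DMSO over time the count of higher genes, 2, became 1 in 1 fit (Rpl12 lost, adjusted p = 0.0581), 0 with the minimum change and 1 to 2 with arrays left out. The count of lower genes, 2, became 1 with the replicate block, 1 with the shift, 1 with the mean of probe sets, 0 with the minimum change and 1 to 2 with arrays left out, and the median became 0.03 with the shift. In GDC-0623 over time the count of lower genes, 3, became 6 in 1 fit, 5 with the dim filter, 6 with the shift, 5 with the trended prior, 1 with the minimum change and 0 to 1 with arrays left out. Its median became −0.17 with the shift and −0.09 with centring, and ranged from −0.08 to −0.04 with arrays left out. The replicate block kept the drug counts at 5 and 4, lost Rps6 in DMSO over time, added Rpl7l1 in GDC-0623 over time (count 4) and changed no other call of the 49 genes. The minimum change removes smaller changes by construction, and the causes of the other shifts were not tested. With 3 arrays per group and probe sets near the top of the scale, the main fit could miss changes of the brightest genes smaller than their 95% intervals. The trended and robust prior, on the same arrays, called some of these genes lower at 72 h, among them Rpl11 (−0.14, adjusted p = 0.0443).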
